A study of Homo sapiens with 32 samples.

Results

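The comparison concerned 5-fluoro-2'-deoxyuridine (5FdUR) and raltitrexed (RTX), a pair of drugs that block thymidylate synthase, in mismatch repair (MMR) proficient HCT116 cells. It used 4 enriched libraries of the 32 samples of the series, chosen by their labels: 2 biological replicates of 5FdUR_UGI_MMR and 2 of RTX_UGI_MMR. HCT116 is a human colorectal carcinoma line that is deficient in MMR. The MMR proficient variant carries an added chromosome 3 that restores it. Cells of both groups stably expressed the uracil-DNA glycosylase inhibitor UGI together with EGFP from a retroviral vector, and were sorted for the fluorescence. Treatment lasted 48 h, at a dose of 20 µM for 5FdUR and of 100 nM for RTX. Uracil-containing fragments of sonicated DNA were captured on an inactive, FLAG-tagged UNG sensor protein and sequenced beside their input DNA. Non-treated UGI-expressing MMR proficient cells (2 libraries) gave the background, and the same drug pair in MMR deficient, UGI-expressing HCT116 (4 libraries) gave a second setting.

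Thymidylate synthase makes the thymidine nucleotide needed for DNA synthesis from its uracil counterpart. When the enzyme is blocked, dUTP accumulates and DNA polymerases place uracil opposite adenine. UNG normally removes such uracil as the first step of base excision repair, and UGI blocks UNG, so uracil stays in the DNA. 5FdUR is a nucleoside whose monophosphate binds the enzyme and which can itself be incorporated into DNA, whereas RTX is a folate analogue. The paper states that the sensor binds fluorouracil in DNA as well as uracil. Regions found after 5FdUR can therefore hold both bases, which these data do not tell apart. The question was where in the genome the uracil-enriched regions of the drugs differ. The uracil itself was not counted in these data. A region is a stretch where enriched over input coverage, as a log2 ratio, lay above a limit that the authors set for each library, and the measure used below is the covered share, the percentage of known bases inside regions.

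Bases covered in both 5FdUR libraries but neither RTX library lay in genes less often than the genome as a whole, and those of RTX more often. Example sequences are given from the middle of long stretches called in both libraries of 1 drug and in neither of the other. They are the reference sequence of GRCh38 on the plus strand, with CpG dinucleotides in capitals, and 150 bases of each are given. For 5FdUR they come from stretches of 113 kb on chromosome 16 with no protein-coding gene, 77.6 kb within ATP2B2 on chromosome 3, and 77.4 kb on chromosome 22 that overlaps SHISAL1.
chr16:86823726-86823875: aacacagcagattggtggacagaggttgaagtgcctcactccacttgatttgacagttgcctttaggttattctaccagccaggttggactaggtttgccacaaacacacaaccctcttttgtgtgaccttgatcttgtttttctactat
chr3:10604426-10604575: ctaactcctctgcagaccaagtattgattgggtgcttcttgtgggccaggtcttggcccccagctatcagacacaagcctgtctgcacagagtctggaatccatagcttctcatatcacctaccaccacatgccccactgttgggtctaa
chr22:44336926-44337075: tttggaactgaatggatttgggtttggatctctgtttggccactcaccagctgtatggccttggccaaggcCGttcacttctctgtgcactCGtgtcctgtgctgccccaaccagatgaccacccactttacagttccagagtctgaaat

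For RTX the corresponding stretches were 106 kb long on chromosome 3 with ZNF589, NME6, SPINK8 and FBXW12 and 104 kb on chromosome 10 with ABRAXAS2.
chr3:48350126-48350275: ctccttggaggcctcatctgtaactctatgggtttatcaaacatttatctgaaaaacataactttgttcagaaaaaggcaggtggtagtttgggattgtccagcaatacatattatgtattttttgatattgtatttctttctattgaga
chr10:124863276-124863425: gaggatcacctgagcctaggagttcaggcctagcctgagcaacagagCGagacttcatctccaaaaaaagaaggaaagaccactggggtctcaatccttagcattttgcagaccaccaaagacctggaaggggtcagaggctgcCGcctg
The GC content of the whole stretches was 47.9, 48.5 and 55.6% for 5FdUR and 42.5 and 45.1% for RTX. Over all bases called in both libraries of 1 drug and in neither of the other it was 45.6% for 5FdUR and 43.3% for RTX. The windows show the sequence of these few stretches and stand for no motif.

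The libraries covered nearly equal shares of the genome but in differently sized pieces. The regions took up 17.5 and 18% of the known bases after 5FdUR, and 18 and 18.3% after RTX. The paper describes thresholds tuned so that replicates and merged data of a sample had about equal total length. It names no MMR proficient sample there. The lowest log2 ratio of any region, taken here as the limit, was 0.2 and 0.13 for the 5FdUR libraries and 0.27 and 0.25 for the RTX libraries. The number of regions was 176889 and 226375 after 5FdUR and 130511 and 107642 after RTX. The N50, a median of region length weighted by bases, was 7000 and 5400 bp after 5FdUR against 11300 and 15900 bp after RTX, so both RTX libraries held the longer regions at the deposited limits. The difference in N50 was -1.12 on the log2 scale (5FdUR minus RTX, two-sided exact permutation test, p = 0.333), and with 2 libraries a drug 0.333 is the smallest p that this test can give. A common limit of 0.27 was also set, under which only regions with a mean log2 ratio of at least 0.27 were kept in each library. The kept regions had their deposited edges, so this is not a new search of the coverage at 1 limit. With the common limit of 0.27 the difference in N50 was -0.211 (exact permutation p = 0.667). The region files give no read depth, and the sequencing platform, a HiSeq or a NovaSeq instrument, is not given for each library, so that its part in any difference was not tested.

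The replicates of a drug shared more bases than libraries of different drugs did. The Jaccard index, the shared bases over all bases of a pair, was 0.517 between the RTX replicates and 0.282 between the 5FdUR replicates. The 4 pairs of different drugs lay between 0.081 and 0.142. RTX replicates shared 361 Mb, which was 68.7 and 67.6% of each, and 5FdUR replicates shared 227 Mb, or 44.6 and 43.4%. In all 4 libraries, 27.8 Mb was covered, 0.954% of the known genome. Bases in both 5FdUR libraries and neither RTX library came to 162 Mb, and those in both RTX libraries and neither 5FdUR library to 256 Mb. Of the first class 38.5% lay in protein-coding genes and 3.26% in exons, while of the second 62.3% lay in genes and 8.42% in exons. Over all known bases these shares were 44.7 and 3.73%. Both classes were mostly absent from the non-treated cells, whose regions held 2.13% of the first and 5.86% of the second against 15.5% of the genome.

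Exons separated the drugs more than any other of the annotated features measured. Fold coverage, the covered share of a feature over that of the genome, was 1.17 and 0.82 for exons after 5FdUR against 2 and 2.02 after RTX. The difference of the means was -1.04 on the log2 scale (exact permutation p = 0.333, the smallest possible). Bodies of protein-coding genes had a fold coverage of 0.97 and 0.85 after 5FdUR and of 1.29 and 1.30 after RTX. Promoters, taken from 1 kb before to 0.2 kb after the gene start, stood at 1.15 and 0.89 against 1.19 and 1.42, and so lay higher after RTX in both libraries by a narrow margin. DNA outside all annotated genes went the other way, with 1 and 1.09 after 5FdUR and 0.80 and 0.81 after RTX. CpG islands, the GC-rich stretches found at many promoters, overlapped between the drugs with 1.26 and 0.97 against 0.92 and 1.16 (exact permutation p = 0.667). The GC content of the region bases overlapped too, at 45.2 and 42.4% after 5FdUR and 43 and 44.4% after RTX.

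Across 29165 bins of 100 kb, more of the tested bins were called for 1 of the drugs than for neither. The covered share of a bin was tested with limma on the arcsine square root scale over the 24524 bins with a mean share of at least 1%. The share was higher after 5FdUR in 9520 bins, or 38.8% of those tested, and higher after RTX in 5615 bins, or 22.9% (Benjamini-Hochberg adjusted p under 0.05). Bins called for 5FdUR held on average 29.6 and 32.4% covered bases in the 5FdUR libraries against 2.62 and 1.56% in the RTX libraries. Bins called for RTX held 59.8 and 67% in the RTX libraries against 9.50 and 5.25%. Which drug had more bins depended on which regions were kept. With the common limit of 0.27 on the mean log2 ratio of a region the counts were 986 for 5FdUR and 4931 for RTX. With regions of at least 5 kb they were 4948 and 4946. Without RTX replicate 1 or without RTX replicate 2 the adjusted count was 0 in both directions, and at an unadjusted p under 0.05 there remained 5949 and 5219 bins for 5FdUR and 4625 and 4591 for RTX, respectively. Neighbouring bins share regions and are not independent.

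By the plain rule that both libraries of 1 drug lie above both of the other, 14283 bins (49.0%) went to 5FdUR and 7054 (24.2%) to RTX. Under the common limit of 0.27 this order turned, to 3337 bins for 5FdUR and 8070 for RTX. With a gap of at least 10 percentage points between the nearest libraries, the counts were 6737 (23.1%) and 5946 (20.4%). The wide-gap bins of 5FdUR had a median GC content of 41.5% and a median of 20.1% of their bases in protein-coding genes. Those of RTX had a median GC content of 43.8% and 69.5% of their bases in genes, and over all bins the medians were 39.8 and 39.7%. In the non-treated cells the wide-gap bins of 5FdUR were covered to 5.58 and 5.97% and those of RTX to 2.84 and 2.93%, both under the 11.0 and 11.3% of all bins.

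Calls differed with the gene content of the bin. In bins with no protein-coding gene, 53.8% of the tested bins were called for 5FdUR and 3.45% for RTX. In bins with 50 to 75% of their bases in genes, 23.5% were called for 5FdUR and 44.2% for RTX. Bins that lay wholly inside genes went back towards 5FdUR, with 41.1% against 16.6%, and their median GC content of 38.9% was near that of the bins without genes, 37.9%. The covered share in the gene-free bins was 14.2 and 18.3% after 5FdUR and 5.39 and 4.33% after RTX.

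**Figure D1:**
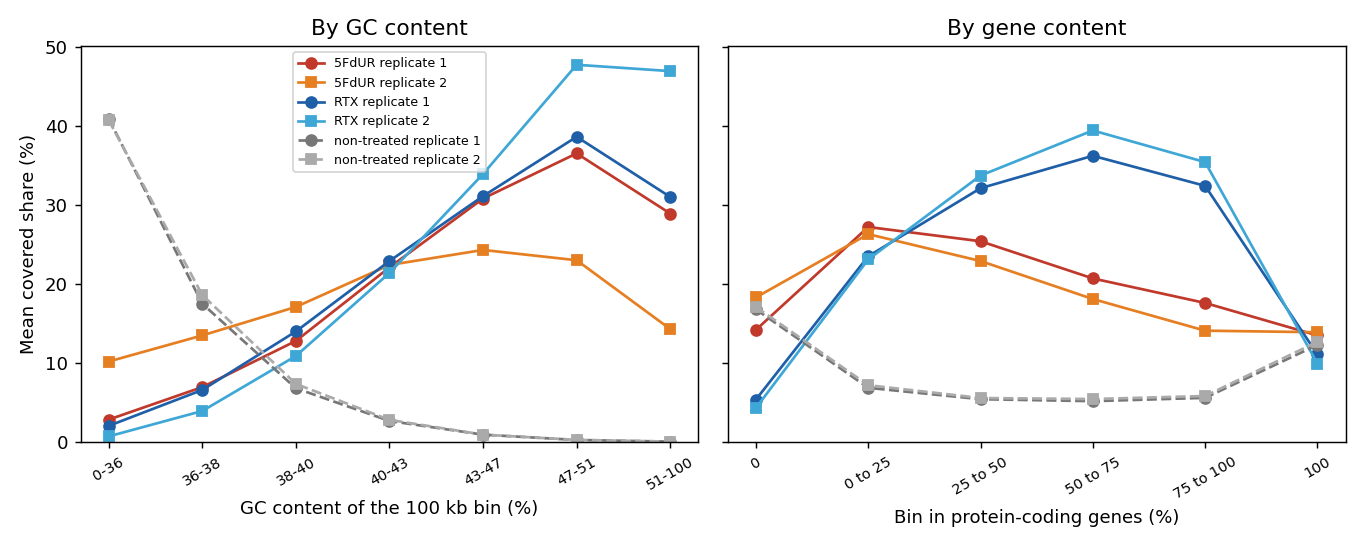
Mean share of 100 kb bins covered by regions (vertical axis, percent) by the GC content of the bin (left) and by the percentage of the bin in protein-coding genes (right), with a line for each drug-treated library and dashed lines for the 2 non-treated libraries. RTX rises to 36.2 and 39.4% in bins that are 50 to 75% genic where 5FdUR stays at 20.7 and 18.1%, and the non-treated libraries fall from 40.9 and 40.7% in the bins of lowest GC to under 1% in those above 43%.

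Calls differed with GC content too, and above 51% GC 14.8% of the tested bins were called for 5FdUR and 52.4% for RTX. In bins under 36% GC the covered share was 2.86 and 10.2% after 5FdUR and 2.07 and 0.74% after RTX. Between 47 and 51% GC it was 36.5 and 23% after 5FdUR and 38.6 and 47.7% after RTX, so 5FdUR replicate 1 lay closer to RTX replicate 1 than to its own replicate. At a fixed GC content of 43 to 47%, bins with under 25% of their bases in genes were covered to 40.1 and 33.9% after 5FdUR, and 58.5% of those tested were called for 5FdUR against 15.8% for RTX. In bins of the same GC content that were 25 to 75% genic, 27.6% were called for 5FdUR and 47.4% for RTX. In those that were 75% genic or more, the calls were nearly even, with 36.8% for 5FdUR and 38.8% for RTX.

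Whole chromosomes were compared by the same rule. Both 5FdUR libraries lay above both RTX libraries on 9 chromosomes, namely 4, 5, 6, 8, 10, 13, 18, 21 and X. Both RTX libraries lay higher on 10, namely 1, 3, 9, 11, 12, 14, 15, 16, 17 and 19, and on chromosomes 2, 7, 20 and 22 the libraries overlapped. Chromosome 17 had the widest gap, with 17.2 and 12.3% covered after 5FdUR and 29.9 and 37.0% after RTX. On chromosome 18 the shares were 14.8 and 15.4% after 5FdUR against 8.40 and 7.67% after RTX, and on chromosome 13 they were 15.4 and 17.6% against 9.64 and 8.34%. Chromosome 1 held 20.2 and 18.5% after 5FdUR and 27.3 and 28.5% after RTX. On chromosomes 9, 12 and 19 the gap was 0.438, 0.257 and 0.152 percentage points, the narrowest of the 19. Chromosome 3, of which the cells carry an added copy, was covered to 16.4 and 17.6% after 5FdUR and 20.4 and 19.6% after RTX.

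Runs of adjacent wide-gap bins reached several megabases. The longest for 5FdUR was chr6:167000001-170600000, near the end of the long arm, with 23 protein-coding genes including WDR27 and SMOC2. It was covered to 61.4 and 61.4% after 5FdUR and to 0.279 and 0.0761% after RTX. The next was chr12:3300001-6000000 with ANO2, PRMT8 and VWF, the gene of von Willebrand factor, where the shares were 67.3 and 63.5% against 2.42 and 1.43%. The third, chr19:51200001-53800000, held 71 genes, among them the zinc finger genes ZNF83, ZNF577 and ZNF432, and stood at 34.0 and 47.3% against 0.715 and 1.09%. The other two were chr5:173300001-175700000 with NSG2, CPEB4 and HRH2, and chrX:11400001-13600000 with FRMPD4, ARHGAP6 and EGFL6. In the non-treated cells these 5 loci were covered to between 0.65 and 2.97%.

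The longest run for RTX was chr17:41600001-45700000, with 119 protein-coding genes in 4.1 Mb, among them NMT1 and DHX8. It was covered to 52.6 and 74.0% after RTX and to 3.04 and 0.68% after 5FdUR. The locus chr1:25200001-29200000, with EPB41, MAN1C1 and PHACTR4 among 83 genes, stood at 65.4 and 81.8% after RTX and 4.12 and 1% after 5FdUR. At chr6:34100001-38000000, with ZFAND3, ANKS1A and FKBP5, the shares were 74.0 and 84.3% against 12.9 and 3.34%. The remaining runs were chr2:24900001-28100000 with BABAM2, DTNB and MRPL33, and chr9:127200001-130300000 with RALGPS1, GARNL3 and HMCN2. The 5 RTX loci held 57 to 119 genes each over 3.1 to 4.1 Mb and the 5 loci of 5FdUR held 9 to 71 over 2.2 to 3.6 Mb.

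Of 17762 protein-coding genes tested with limma, the covered share was higher after RTX in 5654 (31.8%) and higher after 5FdUR in 2139 (12%). By the rule of no overlap, 8991 of 19970 genes (45.0%) went to RTX and 4552 (22.8%) to 5FdUR. With replicate number as a block the adjusted count was 0 in both directions, and 6119 genes for RTX and 1965 for 5FdUR had an unadjusted p under 0.05. The order of the counts turned when a 5FdUR library was left out: without replicate 1 there were 2874 genes for 5FdUR and 2108 for RTX, and without replicate 2 there were 2518 and 1640. Without RTX replicate 1 the counts were 822 for 5FdUR and 5460 for RTX, and without RTX replicate 2 they were 680 and 4917.

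Gene length separated the drugs further. Genes of 20 to 50 kb were covered to 41.1 and 46.9% after RTX and to 18.6 and 14% after 5FdUR, and 39.2% of those tested were called for RTX against 10% for 5FdUR. The order was the opposite among the 322 genes of 500 kb or more, which were covered to 3.69 and 2.64% after RTX and to 11.1 and 13.1% after 5FdUR. In that class 33.9% of the tested genes were called for 5FdUR and 3.25% for RTX. The 5FdUR libraries changed little with length up to 500 kb, from 20.8 and 14.3% in genes under 20 kb to 17.6 and 17.1% in those of 200 to 500 kb.

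Gene starts differed in shape as well as in level. In the 5 kb on either side of the start, RTX coverage fell to 28.3 and 33.2% just inside the gene and 29 and 35.1% just before it. At 5 to 10 kb into the gene it was 36.2 and 42.0%. The 5FdUR libraries showed no such dip, with 19.7 and 15.3% in the first 5 kb of the gene and 19.1 and 15.1% at 5 to 10 kb. The non-treated libraries dipped too, from 4.50 and 4.51% to 2.64 and 2.68%.

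**Figure D2:**
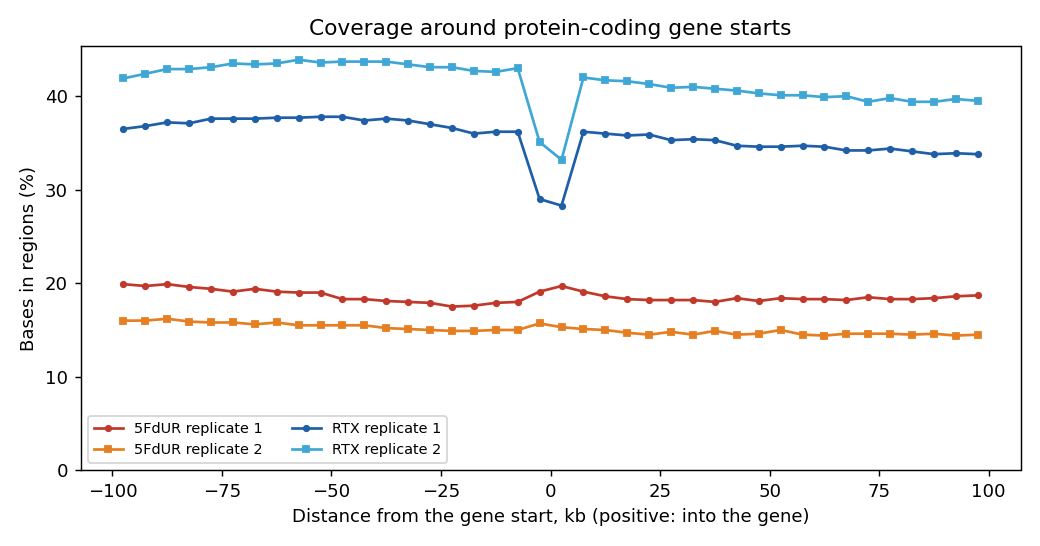
Percentage of bases inside regions in steps of 5 kb around the starts of protein-coding genes, for the 4 libraries, with positive distances running into the gene. Both RTX lines drop in the 5 kb on either side of the start, to 28.3 and 33.2% just inside the gene, while the 5FdUR lines stay between 14.4 and 19.9% throughout.

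The genes of at least 20 kb with the widest gaps were covered from end to end after 1 drug and hardly at all after the other. For 5FdUR these were SLA, a Src-like adaptor of lymphocyte receptors, OGDHL, UNC93A, PARVG, MAL, SIRPA, MTHFSD, the homeobox gene HMX1, the RNA-binding CELF4, the cyclin D2 gene CCND2 and PMEPA1, an inhibitor of TGF-beta signalling. SLA was covered to 100% in both 5FdUR libraries and 0% in both RTX libraries. CCND2 stood at 100 and 94.7% against 0.562 and 0%. CELF4, 323 kb long, was covered to 97.8 and 94.6% against 0%. The gaps of these genes lay between 93.7 and 100 percentage points.

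For RTX a gap of 100 points was reached by 24 genes of at least 20 kb, against 1 for 5FdUR, and the 12 named are the first of them by identifier at least 1 Mb apart. They were COX15, which acts in haem A synthesis, the lipid transfer gene CETP, the DNA helicase gene RECQL5, CRTAM, TMEM59, the ubiquitin-conjugating enzyme gene UBE2B, SLF2, the deubiquitinase gene STAMBP, TCP11, NDFIP1, the histone acetyltransferase gene KAT7 and the splicing factor gene TRA2B. Each was at 100% in both RTX libraries and 0% in both 5FdUR libraries. In the non-treated cells TMEM59 stood at 9.32 and 35.0%, SLF2 at 7.86 and 11.3% and TRA2B at 1.70 and 13.6%, and the other 9 were at 0%. Among all 11618 genes of at least 20 kb, a gap of at least 50 points was found in 2423 for RTX and 329 for 5FdUR.

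Genes of thymidylate and dUTP metabolism, which supply the DNA precursors, were measured as a list. Of 27 tested, 13 were called for RTX and 2 for 5FdUR, where all tested genes gave 31.8 and 12%, with a median difference of -24.2 percentage points (5FdUR minus RTX) against -10.1 over all genes. TYMS, which encodes the enzyme that both drugs block, was 1 of the 2. Its body (chr18:657653-673578, GRCh38) was covered to 30.8 and 37.3% after 5FdUR and was at 0% in both RTX libraries (limma, adjusted p = 0.0136). This call was lost with regions of at least 5 kb (limma, adjusted p = 0.388) and with the common limit of 0.27 (limma, adjusted p = 0.408). The difference on the arcsine scale, 0.623, became 0.261 and 0.294 under these settings. The call was also lost with replicate number as a block (limma, adjusted p = 0.0751) and with a crossed pairing of replicates (limma, adjusted p = 0.0548). It was lost too without RTX replicate 1 or RTX replicate 2, where the difference stayed at 0.623. The other gene called for 5FdUR was UPP1, a uridine phosphorylase, at 71.3 and 45.9% against 1.49 and 0%. The thymidine kinase gene TK1 (chr17:78174091-78187233) was at 0% in both 5FdUR libraries and at 88.3 and 83.8% after RTX (limma, adjusted p = 0.0066). CAD, which starts pyrimidine synthesis, stood at 0% against 91.7 and 98.9%, and the folate enzyme gene MTHFD2 at 0% against 67.8 and 91.7%.

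Repair genes were called for RTX about as often as genes in general, of which 31.8% were called for RTX and 12% for 5FdUR. Their median differences (5FdUR minus RTX) lay further to the RTX side than the -10.1 points of all genes. In uracil base excision repair, 7 of 21 tested genes were called for RTX and 1 for 5FdUR, with a median difference of -41.1 points. The glycosylase gene MBD4 (chr3:129430947-129440179) was at 100% in both RTX libraries and at 0% in both 5FdUR libraries (limma, adjusted p = 0.00306), and NEIL1 stood at 60.2 and 69.0% against 0%. NEIL3, another glycosylase gene, was the call for 5FdUR, with 16.8 and 40.3% against 0% after RTX, and stood at 1.13 and 21.9% in the non-treated cells. UNG did not pass the test, at 12 and 35.7% after 5FdUR and 64.6 and 63.3% after RTX (limma, adjusted p = 0.0777). Among 14 mismatch repair genes 5 were called for RTX and 0 for 5FdUR, with a median difference of -38.4 points. Those called included PMS2 (chr7:5970925-6009130) at 68.3 and 79.9% and MLH3 at 87.5 and 99.5%, both at 0% after 5FdUR.

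**Figure D3:**
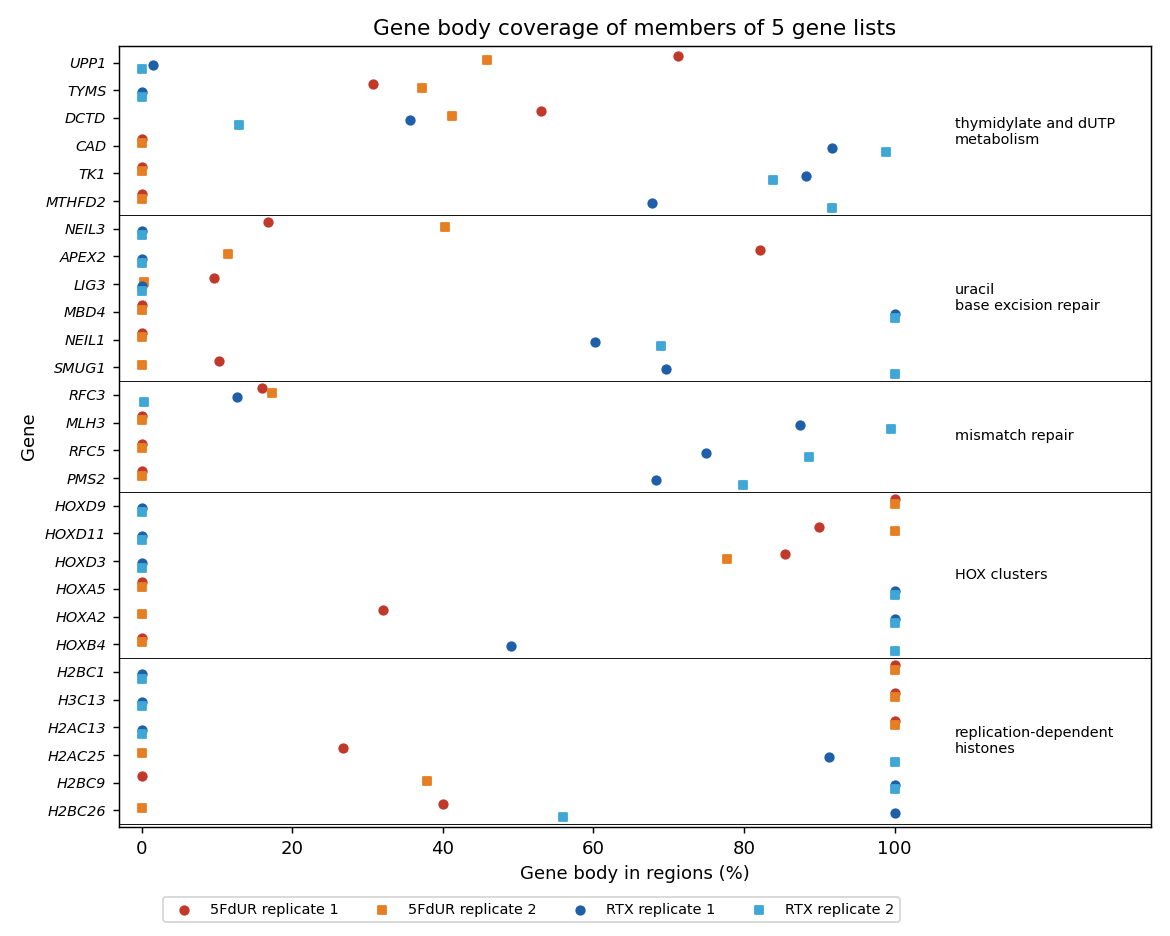
Percentage of the gene body inside regions in each of the 4 libraries for the members of 5 gene lists with the widest gaps in each direction. TK1, MBD4 and PMS2 lie at 0% in both 5FdUR libraries and far above it in both RTX libraries, and TYMS, HOXD9 and H2BC1 lie the other way.

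Of 27 colorectal cancer drivers 10 were called for RTX and 3 for 5FdUR, shares near the 31.8 and 12% of all tested genes, the latter being SOX9 at 100 and 75.9% against 0%, TGFBR2 at 42.8 and 44% against 0.343 and 0%, and AMER1 at 20.9 and 37.3% against 0%. ARID1A, a chromatin remodeller, stood at 89.1 and 91.8% after RTX and 3.04 and 0% after 5FdUR.

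Some gene families gave more calls for 5FdUR than for RTX, whereas all tested genes gave 12 and 31.8%. No test compared a family with other genes. Of 220 tested zinc finger genes of chromosome 19, 89 were called for 5FdUR and 17 for RTX, with ZNF550 at 59.8 and 62.4% against 0%. Replication-dependent histone genes gave 10 calls for 5FdUR and 2 for RTX of 53 tested. H2BC1 was at 100% in both 5FdUR libraries and 0% in both RTX libraries. It is 0.569 kb long, and a gene so short can lie wholly inside or outside a single region. Other homeobox and developmental factors gave 36 and 15 of 128, with FOXF1, NKX2-2 and GSC at 100% in both 5FdUR libraries and 0% after RTX. These genes are short as well, at 4.9, 3.05 and 1.89 kb. Cadherins and protocadherins gave 16 and 5 of 76. Among common fragile site genes, which are very long, 4 of 22 were called for 5FdUR and 1 for RTX, where all genes of 500 kb or more gave 33.9 and 3.25%. PTPRN2 had the widest gap of those called for 5FdUR, at 79.5 and 55.2% against 1.08 and 0.534%, and the exception was CTNNA1, at 63.4 and 71.4% after RTX and 1.14 and 0.216% after 5FdUR.

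The remaining families gave calls in both directions. In the HOX clusters 9 of 38 genes were called for 5FdUR and 5 for RTX, where all tested genes gave 12 and 31.8%. This was again more for 5FdUR than for RTX. HOXD9, 2.22 kb long, was at 100% in both 5FdUR libraries and 0% in both RTX libraries. HOXA5, 2.63 kb long, was exactly the reverse. Cytosolic ribosomal protein genes gave 19 calls for RTX and 3 for 5FdUR of 60 tested, and the RTX share was near the 31.8% of all genes. Among those called for RTX, RPS25, RPL11 and RPL32, of 2.98, 5.09 and 7.1 kb, were at 100% in both RTX libraries. Olfactory receptor genes gave 25 for 5FdUR and 16 for RTX of 190 tested, the former near the 12% of all genes, with 415 in the list and a median share of 0% in each library.

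In MMR deficient cells the same contrast was set beside these values. In the bins called for RTX, 5FdUR coverage was 43.6 and 23.7% in MMR deficient cells against 9.5 and 5.25% in the MMR proficient cells. In the bins called for 5FdUR it was 9.24 and 18.5% against 29.6 and 32.4%. The bins were chosen by the MMR proficient libraries, so these values are a description only, and over all bins 5FdUR coverage was 17.5 and 17.2% against 17.5 and 17.9%. The test of the difference itself, a limma interaction of drug and MMR status over 8 libraries, called 0 of 23628 bins, with 4662 and 2189 at an unadjusted p under 0.05 in the positive and negative direction. The smallest adjusted p of this limma interaction was 0.0512, just over the limit, so the count of 0 does not show that the contrast was the same in both lines. Without replicate 1 or without replicate 2 of 5FdUR in MMR proficient cells it called 3358 and 1580 bins, and without replicate 2 of 5FdUR in MMR deficient cells 7550. Over genes it called 235 of 18368 (1.28%).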

How the data were processed

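Per the labels and the study's methods, the authors aligned reads to GRCh38 with BWA, kept uniquely mapped reads outside a blacklist, and made log2 ratio tracks of enriched over input coverage with deepTools. The deposited region files give intervals above a limit per library with their mean log2 value. Coverage was computed on a grid of 100 bp over chromosomes 1 to 22 and X with GENCODE 44. The covered share of 100 kb bins (50% of the sequence known, or more) and of protein-coding gene bodies was tested where its mean reached 1%, with limma 3.58.1 (lmFit, eBayes with trend) on the arcsine square root of the share, over the 4 libraries, with Benjamini-Hochberg adjustment. Single values had a two-sided exact permutation test. Scripts were tested on simulated data. Named genes were those of at least 20 kb with the widest gap between the nearest libraries of the drugs, 12 in each direction, more than 1 Mb apart. From each list at most 3 in each direction were taken whatever their length, besides TYMS and UNG. Some items these rules select are not reported here. Loci were the 5 longest runs of bins with a gap of at least 10 points. The members and lists were chosen with earlier results of these data known. CpG islands were searched in the sequence (200 bp or longer, GC of 50% or more, CpG ratio to expectation from 0.6).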

Additional observations from a re-analysis of the deposited data

Results flagged for a closer look

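The drug difference depended on MMR status in 235 protein-coding genes (limma interaction over 8 libraries, Benjamini-Hochberg adjusted). Their median length was 4.71 kb, 204 were under 20 kb, and in 69 of them the replicates of all 4 groups had identical values. Among the genes named or picked from the lists, 6 passed this test. CETP had an adjusted p of 0.0492 in the limma interaction, with 85.4 and 72.6% covered after 5FdUR in MMR deficient cells and 0% in MMR proficient cells. For LHX3 and NKX1-2 the adjusted p was 0.0138, and for H3C13, OR52W1 and OR10C1 it was 0.00272. In these 5 genes the drug difference in MMR deficient cells was 0 percentage points and in MMR proficient cells the libraries of the drugs were at 0 and 100%.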

How the results depend on the processing

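The labels number the replicates, and same-numbered libraries did not deviate together over bins (correlation of the replicate differences, -0.174). With 2 replicates a drug and bins that are not independent, this value cannot show whether same-numbered libraries share a batch. With the replicate block the gene counts were 0 for 5FdUR and 0 for RTX, and bins gave 9240 and 5779. A crossed pairing, chosen after seeing the data, gave 681 and 3553 genes. The cause of each change below was not tested, except that fewer units or libraries enter where stated. With regions of at least 5 kb the counts were 4948 bins for 5FdUR and 4946 for RTX, 1299 and 4628 genes, and 6547 and 6473 bins by the no-overlap rule. The common limit of 0.27 drops whole regions of a lower mean log2 ratio, and 5FdUR loses regions under it since its limits were lower. With it the counts were 986 and 4931 bins, 372 and 6014 genes, and 3337 and 8070 bins by the no-overlap rule. The order of both bin counts thus turned to RTX. The untransformed share gave 5809 bins for 5FdUR. Bins of 1 Mb, of which there are fewer, gave 1292 for 5FdUR and 694 for RTX by limma and 1747 and 836 by the no-overlap rule, and a gap of 10 points left 6737 bins for 5FdUR. The interaction with MMR status called 2231 bins with no filter and 1958 on the untransformed share. Leaving out each replicate in turn gave 0 to 10751 bins for 5FdUR, 0 to 2863 for RTX, 680 to 2874 genes for 5FdUR, 1640 to 5460 for RTX and 0 to 7550 bins for the interaction. The same step moved the Jaccard difference between 0.164 and 0.43. The GC difference, 5FdUR minus RTX, ran from -1.3 to 1.49 percentage points and was -0.606 without RTX replicate 1. The CpG island difference ran from -0.0925 to 0.288 on the log2 scale and was -0.0695 without RTX replicate 1. The other 107 values of these comparisons kept their direction and stayed on their side of the threshold or within 1.5 times the count, or within 1 SD for the Jaccard difference. With 1 library left in a drug, limma takes its spread from the other drug. The region files give no read depth, so no limit set by depth is given.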
